A study of Mus musculus with 2 samples.

Results

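Genes of fat cells were followed in total RNA of the mouse intestine. The labels do not say whether mesenteric fat was left on the tissue. The genes were Cfd, Adipoq, Retn, Lep, Plin1, Plin4, Cidec, Lpl, Pparg and Lipe, taken as every non-control row of the scanner files bearing one of these 10 names. These 10 of the 26582 gene names in the files were measured by 14 of the 41174 probes of the array, in 32 of its 43379 spots of gene probes. Both groups were male mice in a series titled C57BL/6, 20 weeks old and on a normal diet. One was labelled wild type and the other as deficient in GDE5 (Gpcpd1) in the gut only, with no other allele or treatment named. The design text names 5 mice without saying how they were divided or pooled. Nor do the sources used here name the promoter that restricts the deletion to the gut. RNA of both groups was hybridised together on 2 dual-colour arrays, with the RNA labelled knockout in Cy3 on array 1 and in Cy5 on array 2.

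White fat cells store triglyceride in a single large lipid droplet and secrete hormones and complement factors. Pparg encodes the nuclear receptor that drives fat cell formation. Lipoprotein lipase, encoded by Lpl, frees fatty acids from blood lipoproteins for uptake, the perilipins and Cidec coat and enlarge the droplet, and hormone-sensitive lipase, encoded by Lipe, takes part in emptying it. In the gut, enterocytes and macrophages also express part of these genes, Pparg and Lpl among them, so only some of the 10 mark fat cells alone.

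Every value below is a log2 ratio, with the RNA labelled knockout as numerator and wild-type RNA as denominator, or a processed intensity of one channel in the arbitrary units of the scanner. Ratios were computed after background correction by normexp and loess within each array unless they are called processed ratios, which are those of the scanner software. Means are given ± SD of the 2 arrays (n = 2). It is not stated whether one pair of extracts was used for both arrays, so the 2 hybridisations may differ for technical reasons alone. Limma's p-values and intervals rest on how far these 2 differ at a probe, moderated by the spread over all probes tested. They cannot be said to measure the spread between mice. Gpcpd1 itself had a positive ratio on both arrays at 3 of its 4 probes (means 0.47, 0.62 and 0.68) and a mean of -0.13 at the fourth, A_52_P407755. Which part of the gene was deleted is not stated, so a probe outside it would check nothing about the labels, and each direction below rests on the dye labels. Ratios of the arrays, turned to the same genotype direction, correlated at r = -0.38 across the 29047 probes tested (Spearman -0.41), and at -0.01 (Spearman -0.15) with processed ratios. These are correlations across probes, which are not independent replicates. In bulk RNA, fewer fat cells and less RNA per fat cell cannot be told apart.

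The oligos of Cfd, Adipoq and Retn are shown because both knockout intensities of each lay below both wild-type ones, and because the Retn oligos overlap. All sequences are those of the scanner files, 60 bases long, and written 5′ to 3′.
Cfd A_51_P156955: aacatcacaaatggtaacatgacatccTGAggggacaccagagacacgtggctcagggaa
Adipoq A_51_P458451: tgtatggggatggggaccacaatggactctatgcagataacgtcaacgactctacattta
Retn A_52_P55972: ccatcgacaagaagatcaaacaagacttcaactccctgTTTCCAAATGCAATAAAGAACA
Retn A_51_P233597: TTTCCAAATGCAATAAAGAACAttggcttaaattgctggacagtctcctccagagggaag
Capitals in the Cfd oligo mark the TGA met first when it is read in triplets from its first base, at base 28. Capitals in both Retn oligos mark the 22 bases they share, bases 39 to 60 of A_52_P55972 and 1 to 22 of A_51_P233597, so these probes read partly overlapping stretches of the transcript. The design file places the oligos, on mm9, at chromosome 10, 79355302 to 79355361 (Cfd), and chromosome 16, 23157576 to 23157635 (Adipoq). The Retn oligos lie on chromosome 8 at 3656107 to 3656928 and 3656145 to 3656966, each spread over 822 bases of genome. By the order of the start and end given in the file, all 4 printed oligos read along the plus strand. The files do not say which part of the gene an oligo reads.

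RNA of 9 of the 10 genes was well above background in both groups. Of the 14 probes, 12 were well above background in both genotypes on both arrays, as were 67.2% of all probes on the array. The exceptions were the only Lep probe and the third Lipe probe, A_51_P174133, which was not well above background in either genotype on either array and is left out below. That left 13 probes for all 10 genes. None of them was called by limma with Benjamini-Hochberg adjustment over all probes (adjusted p = 1 for each); none of the 29047 probes was called (0%), and 353 had an unadjusted p under 0.05. With processed ratios limma called 80 probes (0.275%), 26 of them lower (0.0895%), again none of the 13, whose smallest adjusted p was 0.832, that of Cfd. No gene of the group was at least 1.5-fold lower on both arrays, against 0.0482% of all probes tested (0.251% with processed ratios, again with no gene of the group).

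Taking the brightest tested probe of each gene, 3 of the 10 genes had ratios below 0 on both arrays, Cfd, Adipoq and Plin1, against 18.8% of all probes tested. One gene, Pparg, was above 0 on both, against 17.4%. The remaining 6 had ratios of opposite sign on arrays 1 and 2, against 63.9%. Among them were 4 of the 10 genes brighter in Cy3 on both arrays whichever genotype carried it, against 33.9%. Lep is counted among these 4 at 0.05 and -0.01, although its probe was near background. The median over the 10 genes was -0.03, with -0.01 on array 1 and -0.19 on array 2, beside -0.01 over all probes tested (0.01 on array 1 and -0.01 on array 2). With processed ratios, 3 of the 10 genes were below 0 on both arrays, against 21.5% of probes, and these were Cfd, Adipoq and Retn, with 57.8% of probes and 6 of the 10 genes opposite in sign and a median over the group of -0.07. With normexp and loess the group median thus lay further below that of all probes on array 2 than on array 1. With processed ratios it was 0.04 on array 1 and -0.16 on array 2, beside -0.007 and 0.002 over all probes. It thus lay above that of all probes on array 1 and below it on array 2. Cfd had the lowest mean of the 10 genes with either kind of ratio.

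**Figure D1:**
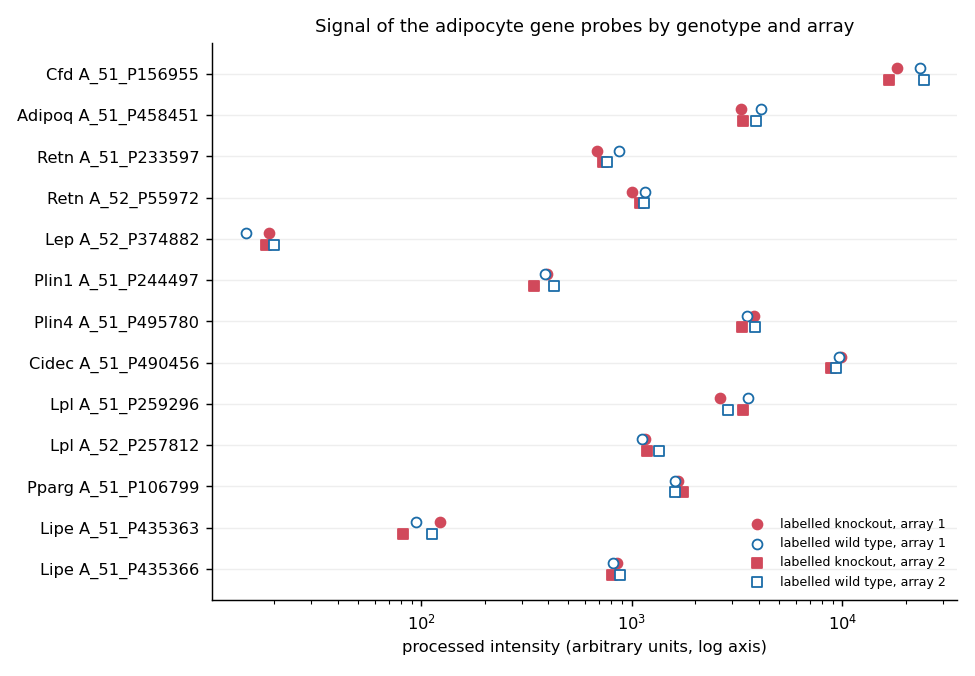
Processed intensity (arbitrary units, log axis) of the 13 tested probes of the 10 genes, with filled red symbols for the RNA labelled knockout, open blue symbols for the RNA labelled wild type, circles for array 1 and squares for array 2. Both knockout intensities lie left of both wild-type ones for Cfd, Adipoq and both Retn probes, and right of them for Pparg only.

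Among the secreted products, Cfd stood furthest from 0. It encodes adipsin (complement factor D), a serine protease secreted by fat cells that starts the alternative complement pathway by cutting factor B. Its processed intensity in the RNA labelled knockout was 18208 on array 1 and 16567 on array 2, and in the RNA labelled wild type 23487 and 24294. Both knockout values were below both wild-type values. The ratio was -0.48 on array 1 and -0.53 on array 2, a mean of -0.50 ± 0.03, or 1.42-fold lower (limma's 95% interval of the mean -0.87 to -0.14, unadjusted p = 0.0179, adjusted p = 1). With processed ratios it was -0.46 ± 0.13 (adjusted p = 0.832). Counting Cfd itself, 20 of the 29047 probes were as low or lower on both arrays (0.0689%), and 153 were with processed ratios (0.527%). Cfd was the only one of the 13 probes whose interval left out 0, with either kind of ratio. Such an interval is the same as an unadjusted limma p under 0.05. Over all 29047 probes, 353 had such a p, and 1501 had one with processed ratios.

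Adipoq encodes adiponectin, a hormone made almost only by fat cells. Its knockout intensities were 3308 and 3364 on arrays 1 and 2, and its wild-type intensities 4092 and 3882, with no overlap between the groups. The ratio was -0.19 and -0.21, a mean of -0.20 ± 0.01, and -0.26 ± 0.07 with processed ratios. The interval of the mean ran from -0.56 to 0.16.

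Retn encodes resistin, a cysteine-rich hormone that mouse fat cells secrete. Its dimmer probe, A_51_P233597, had knockout intensities of 680 and 726 and wild-type intensities of 866 and 763. Its overlapping probe, A_52_P55972, had knockout intensities of 997 and 1099 and wild-type intensities of 1154 and 1136. Neither probe had an overlap between the genotypes. The ratios of A_51_P233597 were -0.18 and -0.09 (-0.14 ± 0.07), whereas those of A_52_P55972 were -0.37 and 0.15 (-0.11 ± 0.37), so the probes gave like means but unlike values on both arrays, with opposite signs on array 2. With processed ratios both were below 0 on both arrays, at -0.21 ± 0.20 and -0.13 ± 0.12.

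In all, 4 of the 13 probes had both knockout intensities below both wild-type ones, those of Cfd, Adipoq and Retn, against 17% of all probes tested. One, that of Pparg, had both above, against 12.6%.

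Lep encodes leptin, the satiety hormone that fat cells secrete in proportion to fat mass. Its only probe, A_52_P374882 (chromosome 6, 29023234 to 29023293, mm9), was printed 10 times per array and was near background. In the RNA labelled knockout 9 and 6 of the 10 spots were well above background on arrays 1 and 2, and in the RNA labelled wild type 4 and 10. It entered the test through the RNA labelled knockout alone. Knockout intensities ran from 15.6 through a median of 19.5 to 22.5 on array 1, and from 8.18 through 19.5 to 25.0 on array 2. Wild-type intensities ran from 5.31 through 14.9 to 22.7 on array 1, and from 16.4 through 20.7 to 22.3 on array 2. The genotypes overlapped on both arrays. The mean ratio was 0.02 ± 0.05, and 0.14 ± 0.46 with processed ratios, whose spot values spread with an SD of 0.660 on array 1 and 0.514 on array 2. At this signal a difference in leptin was not detectable.

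**Figure D2:**
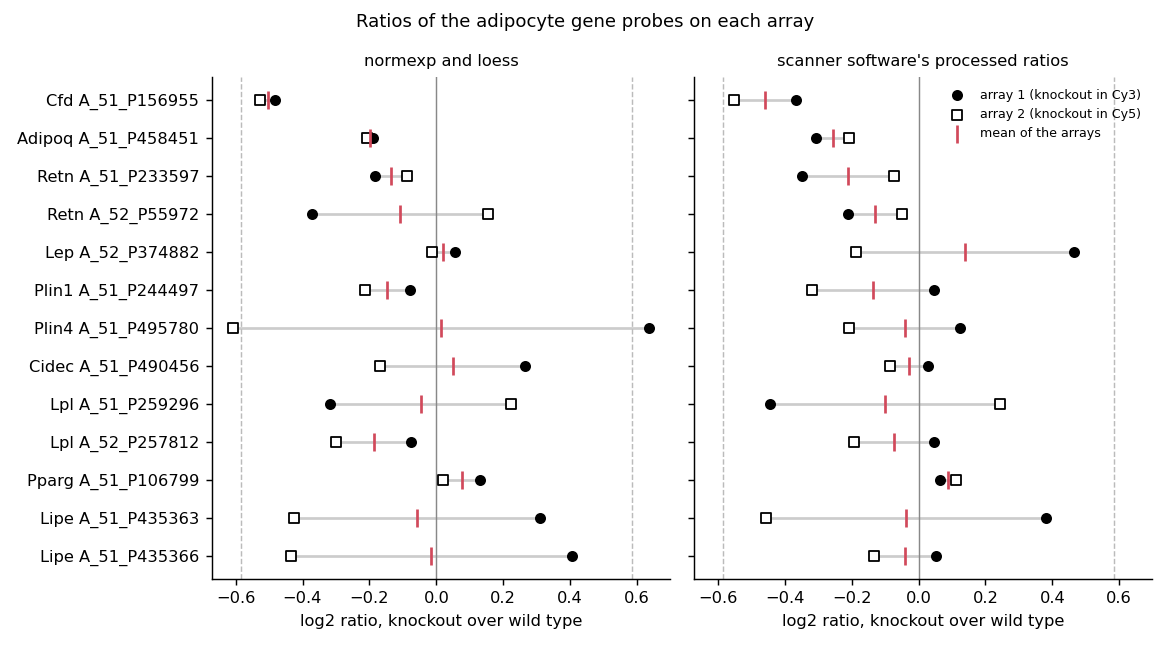
Log2 ratio (knockout RNA over wild-type RNA, as labelled) for the 13 probes, from normexp and loess (left) and from the scanner software's processed ratios (right), with a grey line joining the arrays, a red bar at their mean and dashed lines at 1.5-fold. The arrays lie close together and left of 0 for Cfd and Adipoq, and far apart for Plin4 and Lipe on the left but less so on the right, where Lipe A_51_P435363 stays spread.

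None of the 3 genes of the droplet coat was called. Plin1 encodes perilipin 1, the coat protein of the large droplet of fat cells that holds back lipolysis until it is phosphorylated. Its probe A_51_P244497 (chromosome 7, 86866112 to 86866171, mm9) had knockout intensities of 397 and 343 and wild-type intensities of 385 and 428, which overlapped. Its ratio was -0.08 and -0.21 (-0.15 ± 0.09), and 0.05 and -0.32 with processed ratios (-0.14 ± 0.26).

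Plin4 encodes perilipin 4, a coat protein of small nascent droplets. Knockout intensities of its probe A_51_P495780 (chromosome 17, 56240055 to 56240114, mm9) were 3823 and 3329, and wild-type intensities 3512 and 3842. The channel labelled with Cy3 was the brighter one on both arrays. Its ratios were 0.64 and -0.61, a mean of 0.01 ± 0.88, with a distance of 0.62 from that mean to either array. With processed ratios these were 0.12 and -0.21, a mean of -0.04 ± 0.23 and a distance of 0.16. Dye, array position and hybridisation cannot be told apart in this distance.

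Cidec encodes a protein that fuses small droplets into large ones. Its probe A_51_P490456 (chromosome 6, 113374693 to 113374752, mm9) had knockout intensities of 9814 and 8806 against wild-type intensities of 9626 and 9345, which overlapped. The ratio was 0.27 and -0.17 (0.05 ± 0.31), and -0.03 ± 0.08 with processed ratios.

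Of the lipases, Lipe encodes hormone-sensitive lipase, which cuts diacylglycerol and cholesteryl ester. Its brighter probe, A_51_P435366, lies on chromosome 7 between 26165974 and 26168227 (mm9), and had knockout intensities of 847 and 804 and wild-type intensities of 818 and 882. Its dimmer probe A_51_P435363 (26165828 to 26165887) had 123 and 82.1 in the RNA labelled knockout and 94.2 and 113 in the RNA labelled wild type. Both genotypes overlapped at both probes. The ratios were 0.41 and -0.44 (-0.01 ± 0.60) at the first and 0.31 and -0.42 (-0.06 ± 0.52) at the second, so Cy3 was again the brighter dye on both arrays. The spots of Plin4 and of both Lipe probes lie in rows 34, 36 and 62 of the array. In rows 1 to 67, a band chosen after the values were seen, the median log2 ratio of Cy5 over Cy3 was -0.18 on array 1 and -0.17 on array 2. After the median of each block of rows and columns was taken off, Plin4 was at 0.45 and -0.47 and the brighter Lipe probe at 0.20 and -0.31.

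Lpl, the lipase of blood lipoproteins, had probes that differed. Probe A_51_P259296 (chromosome 8, 71430267 to 71430326, mm9) had knockout intensities of 2621 and 3384 and wild-type intensities of 3566 and 2857, with Cy5 the brighter dye on both arrays. Its ratios were -0.32 and 0.22 (-0.05 ± 0.38). Probe A_52_P257812 (chromosome 8, 71425050 to 71425109) had knockout intensities of 1157 and 1182 and wild-type intensities of 1121 and 1353. Its ratios were -0.08 and -0.30 (-0.19 ± 0.16), and 0.04 and -0.19 (-0.07 ± 0.17) with processed ratios. The genotypes overlapped at both probes, and the interval of each mean included 0.

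Pparg was the only gene of the group with ratios above 0 on both arrays. Its probe A_51_P106799 (chromosome 6, 115440213 to 115440272, mm9) was printed 10 times per array and was well above background in every spot. Knockout intensities ran from 1623 through a median of 1658 to 1732 on array 1 and from 1349 through 1767 to 1945 on array 2. Wild-type intensities ran from 1275 through 1602 to 1872 on array 1 and from 1564 through 1599 to 1697 on array 2. Spots of the genotypes overlapped on both arrays, while the averages over spots did not. The ratio was 0.13 and 0.02 (0.08 ± 0.08), and 0.07 and 0.11 (0.09 ± 0.03) with processed ratios. Single spots of this one oligo ran from -0.04 to 0.55 on array 1 and from -0.43 to 0.24 on array 2, with an SD of 0.237 and 0.215. Over the 245 probes printed 10 times, the median SD between spots was 0.183 and 0.121.

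**Figure D3:**
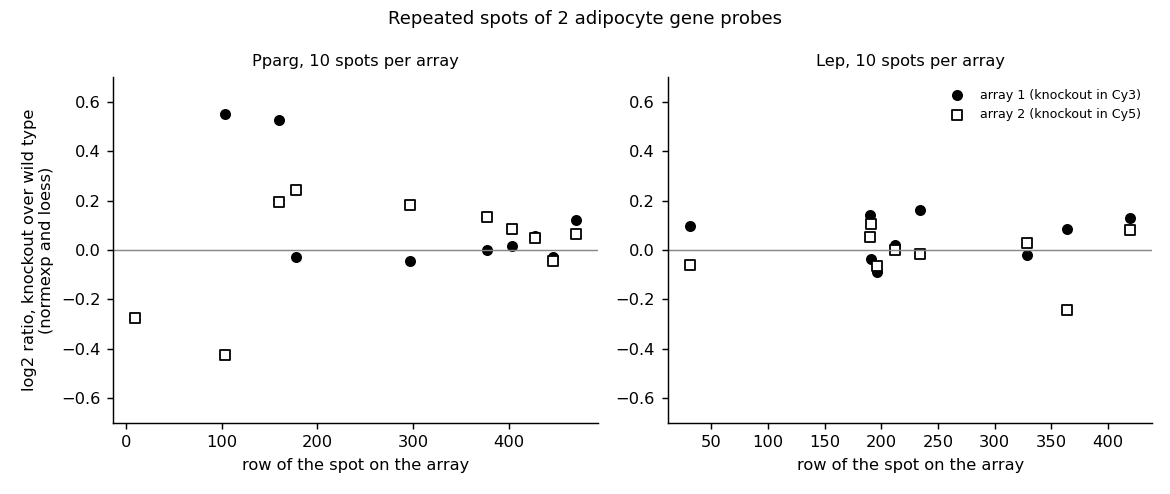
Log2 ratio (knockout RNA over wild-type RNA, as labelled, by normexp and loess) of each spot of the Pparg and Lep oligos against its row on the array, with filled circles for array 1 and open squares for array 2. Pparg spots range from -0.43 to 0.55 although they hold one sequence, and spots marked by the scanner software are left out, so that 9 Pparg spots are shown for array 1 and 10 for array 2.

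**Figure D4:**
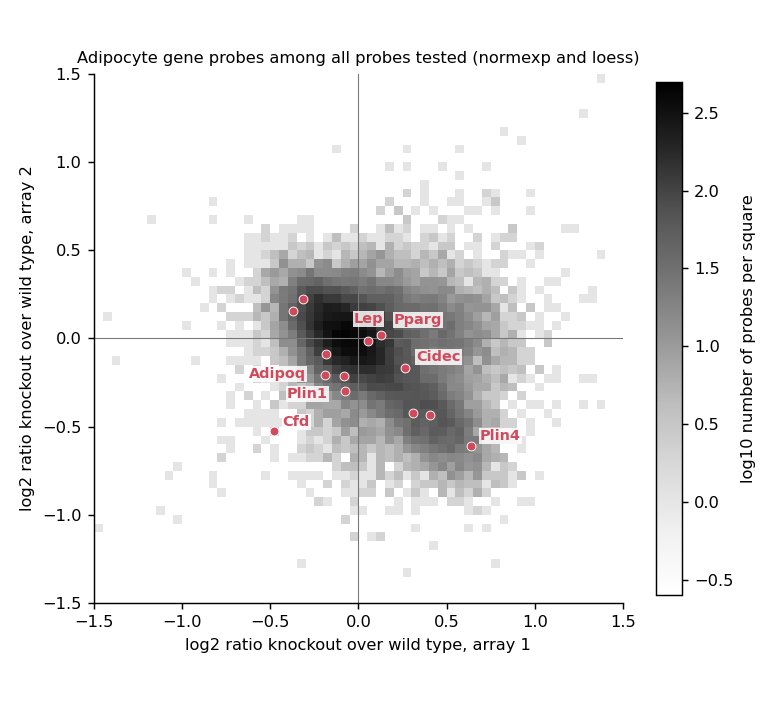
Log2 ratios of the 13 probes (red) on array 1 against array 2, over the log10 number of all probes tested in each square (grey), with normexp and loess. Cfd lies at the sparse lower left edge, Adipoq and Plin1 within the dense centre, and Plin4 in the arm at the lower right that holds probes brighter in Cy3 on both arrays, and 10 of the 29047 probes lie outside the axes.

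By Euclidean distance in the pair of ratios, the genes nearest to Cfd among 18987 others were Card14 (-0.48 and -0.52, distance 0.01), Socs3 (-0.49 and -0.48, distance 0.05) and Zfp947 (-0.43 and -0.50, distance 0.06). This likeness rests on 2 arrays, and 8 genes lay within 0.1.

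The partners of the secreted products were all measured: 12 of 12 genes, of which 3 were below 0 on both arrays, 2 above and none called, with a median of 0.02. For this list and those below, the shares over all probes tested were 18.8% below 0 on both arrays and 17.4% above. C3, the complement protein that the enzyme built with adipsin cuts, was at 0.52 ± 0.42 (0.81 and 0.22), and Cfb, the substrate of adipsin, at 0.28 ± 0.44 (0.60 and -0.03). Cfi, which inactivates C3b, and Hc, complement component C5, were at -0.24 ± 0.13 and -0.14 ± 0.01. The leptin receptor Lepr was at 0.12 ± 0.15, the adiponectin receptors Adipor1 and Adipor2 at 0.36 ± 0.68 and 0.09 ± 0.30, and Cdh13, the cadherin that binds adiponectin, at -0.05 ± 0.21.

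Of 10 partners of lipoprotein lipase, 3 were below 0 on both arrays and 1 above, with a median of -0.04. Gpihbp1, which holds the enzyme at the capillary wall, was at -0.03 ± 0.04, and its inhibitor Angptl4 at -0.04 ± 0.32. The fatty acid carrier Cd36 was at -0.09 ± 0.03.

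Of 18 other genes of the droplet and lipolysis, 16 were measured, 6 below 0 on both arrays and 1 above, with a median of -0.08. With processed ratios 9 of the 16 were below 0 on both, against 21.5% of all probes, and the median was -0.11. The droplet protein Plin5 was at -0.13 ± 0.07 and Cideb, a relative of Cidec, at -0.08 ± 0.02. Pnpla3 was at 0.13 ± 0.09. Pnpla2, the first lipase of triglyceride breakdown, its activator Abhd5, and Mgll, the last lipase, were at -0.04 ± 0.64, -0.06 ± 0.19 and -0.11 ± 0.30. The beta-3 adrenergic receptor Adrb3, which starts lipolysis in mouse fat cells, was not well above background in either genotype.

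All 17 genes of Pparg partners and fat cell transcription were measured, with 2 below 0 on both arrays, 3 above and a median of -0.03. Rxra, the partner receptor of Pparg, was at 0.01 ± 0.01, Cebpa at -0.03 ± 0.13, the sugar sensor Mlxipl at -0.18 ± 0.07 and Ebf1, also a B cell factor, at 0.31 ± 0.38.

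Of 24 other genes high in fat cells, 21 were measured and none called. Of these, 8 were below 0 on both arrays (18.8% of all probes) and 3 above (17.4%). The median was -0.05 (-0.09 on array 1 and -0.05 on array 2), beside -0.01 over all probes. With processed ratios 9 were below 0 on both (21.5% of all probes) and the median was -0.06, beside -0.02. Fabp4, the fatty acid binding protein of fat cells, was at -0.16 ± 0.04, and Car3, a carbonic anhydrase of fat and muscle, at -0.20 ± 0.16. The genes furthest below 0 on both arrays were Cyp2e1 (-0.44 ± 0.06), a cytochrome of liver and fat, haptoglobin Hp (-0.33 ± 0.06) and the lipogenic regulator Thrsp (-0.21 ± 0.10). Cyp2e1 and Hp are also strongly expressed in liver. Of 8 brown fat genes, 5 were measured, 1 below 0 on both arrays and 2 above, with a median of 0.06. Ucp1, Elovl3 and Zic1 were not well above background. Highest of the 5 was Ppargc1a, which enterocytes also express, at 0.40 ± 0.34.

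**Figure D5:**
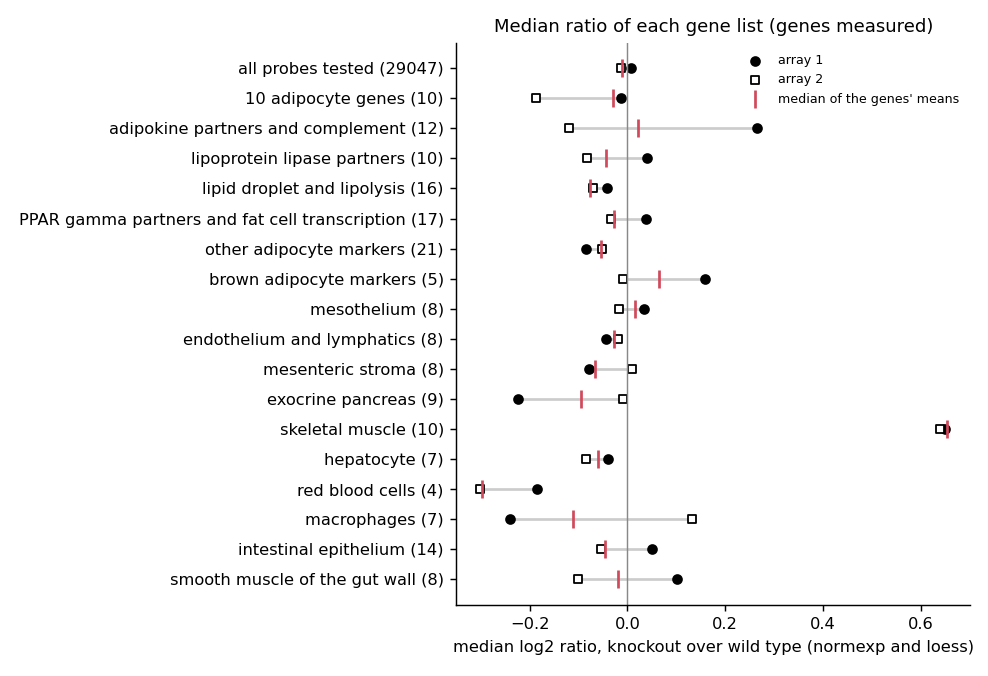
Median log2 ratio (knockout RNA over wild-type RNA, as labelled, by normexp and loess) for each gene list, on array 1 (circles), on array 2 (squares) and over the genes' means (red bars), with the number of genes measured in brackets. Over the genes' means the 10 genes lie at -0.03, though at -0.19 on array 2, the partners of the secreted products at 0.02, though at 0.26 on array 1, and the skeletal muscle list at 0.65.

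Markers of other cell types were set beside the fat cell genes. Over all probes tested, 18.8% were below 0 on both arrays and 17.4% above (21.5% and 20.7% with processed ratios). All 14 genes of the gut epithelium and all 8 of smooth muscle were well above background in both genotypes on both arrays, with medians of -0.05 and -0.02. Single epithelial genes lay far from that median, among them lactase, Lct, at 1.41 ± 0.61 and Fabp2, a fatty acid binding protein of enterocytes, at 0.70 ± 0.35. Mesothelium, which covers the gut and mesentery, was measured by 8 of 8 genes with a median of 0.02. Of 8 genes of the mesenteric stroma, 1 was below 0 on both arrays and none above (median -0.07), and of 8 of endothelium and lymphatics, 3 and 2 (median -0.03). Macrophage genes had a median of -0.11, with none of 7 on one side of 0 on both arrays. Of 12 exocrine pancreas genes listed, 9 were measured, and Pnlip and Cela2a were not well above background in either genotype. Of the 9 measured, 4 were below 0 on both and none above (median -0.09). With processed ratios 5 were below on both and the median was -0.24. By these ratios 1 gene was at least 1.5-fold lower on both arrays (0.251% of all probes), a dim one with intensities of 16.8 to 30.6. With normexp and loess the lowest was another gene, the lipase-related Pnliprp1, at -0.46 ± 0.04. Of 7 red cell genes listed, 4 were measured, 2 of them below 0 on both (median -0.30). Of 10 hepatocyte genes listed, 7 were measured, and albumin, Alb, was not well above background in either genotype. Of the 7 measured, 5 were below 0 on both and 2 above (median -0.06, and -0.30 with processed ratios). Tat was among those below, at -1.07 ± 0.10, and was at least 1.5-fold lower on both arrays (0.0482% of all probes). With processed ratios it was at -1.11 ± 0.04 and limma called it (adjusted p = 0.0192), as it called 0.0895% of all probes as lower. The other hepatocyte genes below 0 on both arrays were dim, with intensities of 17.5 to 76.3. Of 10 skeletal muscle genes, 7 lay above 0 on arrays 1 and 2 alike, and 2 lay below 0 on both. On each array 5 were at least 1.5-fold higher (0.12% of all probes). The median was 0.65, with Myh4 at 2.18 ± 0.23. With processed ratios 7 of the 10 were at least 1.5-fold higher on each array (0.571% of all probes), limma called 7, and the median was 1.40. The part of these tissues in the ratios of the fat cell genes was not tested.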

How the data were processed

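A pair of dye-swapped arrays were read from the authors' deposited scanner files, which hold intensity values, log10 ratios of processed Cy5 over Cy3 and the software's p-value for each spot, from Agilent Feature Extraction 11.5.1.1 per the file headers (9.5 in the submitters' processing notes). The deposited value table holds the same log10 ratios rounded, and has 0 columns beyond the 2 arrays. Spot signals were corrected with normexp (offset 50, feature- and background-marked spots left out before the fit) and loess within the array, where control spots had weight 0 (limma 3.58.1, R 4.3.3). Spots of a probe were averaged. A probe entered the test when, for one genotype, at least 0.5 of its spots on each array were well above background. The mean ratio was tested against 0 by lmFit and eBayes over all 29047 probes (1 residual and 3.04 prior degrees of freedom), and the script was checked on simulated data. Median Cy3 and Cy5 signals were 98.7 and 106 on array 1 and 103 and 105 on array 2, over local backgrounds of 25 to 44. No spot was saturated. Precision is limited by having 2 arrays. Both arrays lie on one slide. Symbols of list genes were updated through RefSeq accessions (GRCm38.p6, names only) for 31441 spots. Named genes are all members, up to 3 per list with the largest smaller ratio of one sign, and fixed direct partners. One list gene that this rule names is not reported here. Adrb3, Ucp1, Elovl3, Zic1, Pnlip, Cela2a and Alb were named after their values were seen. Members and lists were chosen with earlier results of these data known. Python 3.11.15 was used for summaries.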

Additional observations from a re-analysis of the deposited data

How the results depend on the processing

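Of the 10 genes, 8 kept the sign of their mean ratio under each of the other background corrections, normalizations, filters and probe rules run for them. Genes were read at their brightest tested probe unless the probe rule was changed. Lipe, among the 8, lay near 0, from -0.054 to -0.0046. Its dimmer probe A_51_P435363 turned from -0.06 to 0.02 without background correction and to 0.11 with marked spots kept. Cfd ranged from -0.57 to -0.45 and Adipoq from -0.26 to -0.20, and limma called none of the 10. Plin4 turned to -0.042 with processed ratios, -0.042 with the deposited value table, -0.0013 with marked spots kept in the normexp fit, -0.029 with median centring and -0.010 with a surface removed. Cidec turned to -0.029 with processed ratios, -0.030 with the value table, and to -0.0082 with median centring. Limma called 80 probes with processed ratios, 80 with the value table, 30 with normexp offset 0 and 5 with a surface removed, against 0. The count of genes above 0 on both arrays was 0 with marked spots kept and with median centring. The median over the 10 genes, -0.03, was -0.050 with marked spots kept, -0.062 with median centring, -0.070 with a surface removed, -0.071 with processed ratios or the value table and -0.076 with the mean of a gene's probes. It was -0.026 to -0.046 under the other settings run on both arrays. The genes below 0 on both arrays numbered 4, not 3, with marked spots kept, with median centring and with the mean of probes. The median of the other fat cell genes was -0.079 with offset 0, -0.090 with marked spots kept and -0.091 with median centring. With one array left out, 5 to 7 genes were below 0, 3 to 5 above and 0 to 1 at least 1.5-fold lower, Plin4 on array 2. The median then ran from -0.19 to -0.013 over the group, and from -0.085 to -0.052 over the other fat cell genes. These causes were not tested. One array leaves no residual degrees of freedom, so limma could not be run on it. No further paired analysis was run because the ratio within each array already pairs the genotypes. Lep, near background, is limited by signal.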
